A study of Mus musculus with 6 samples.

Results

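The data described here are the levels of 8 genes that assemble and signal through the first antigen receptors of the B lineage, in single leukocytes sorted from inflamed mouse joints. The genes were chosen by symbol, Rag1, Rag2, Dntt, Vpreb1, Vpreb3, Igll1, Cd79a and Cd79b, and all 8 were found among the 20394 genes of the deposited count table. The cells were CD45+ synovial cells of male C57Bl/6J mice with antigen-induced arthritis, which were 8 weeks old when obtained and were kept for at least 2 weeks before use. All animals were immunised with 10 μg of methylated bovine serum albumin (mBSA) in complete Freund's adjuvant and challenged in the knee with 100 μg mBSA on day 21, and joints were taken 3 days later. From the challenge on, 2 samples came from animals given PBS and 4 from animals given 300 μg of the peptide PEPITEM. The 32953 cell barcodes end in a number from 1 to 6, and no source used here ties these numbers to a treatment. They are therefore called libraries 1 to 6, the treatments were not compared, and the whole table counts as 1 sample without a test. Stages were compared within each library, by the number of libraries in which a level was higher or lower.

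As background, a developing B cell builds its antibody genes by cutting and joining gene segments. The proteins of Rag1 and Rag2 make the cut, and the terminal transferase encoded by Dntt adds untemplated bases to the joins, mainly while the heavy chain is assembled in the pro-B cell. A successful heavy chain pairs with a surrogate light chain, made of the products of Igll1 (lambda 5) and Vpreb1 or its close copy Vpreb2, and with the signalling chains Cd79a and Cd79b. The pre-B receptor formed in this way drives division, after which the resting pre-B cell recombines its light chain genes. Vpreb3 encodes a related chain of the endoplasmic reticulum in B lineage cells. In adult mice these steps take place mainly in the bone marrow.

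The start regions of 4 of the genes are shown because they pair genes that are neighbours on the chromosome and are compared throughout. Rag1 (chromosome 2, 101638282 to 101649501, minus strand) and Rag2 (101624718 to 101632529, plus strand) lie with their ends facing each other and 5752 bases apart. Igll1 (chromosome 16, 16860671 to 16863985) and Vpreb1 (16868403 to 16870843) lie on the minus strand with 4417 bases between them. The other genes each lie on a chromosome without another of the 8. Dntt is on chromosome 19 (41029275 to 41059525, plus strand) and Vpreb3 on chromosome 10 (75943057 to 75949657, plus strand). Cd79a is on chromosome 7 (24897381 to 24902197, plus strand) and Cd79b on chromosome 11 (106311341 to 106314762, minus strand). All positions are GRCm38, the build called mm10 to which the reads were aligned, and the gene limits are those of GENCODE. Each sequence is from RefSeq (GRCm38.p6), 5′ to 3′ on the strand of its gene, with 250 bases before and 50 bases from the annotated start on. The Vpreb1 sequence lies inside the GENCODE limits of its gene, as RefSeq and GENCODE place this start differently. Capitals mark the E-box CAGGTG or its reverse complement CACCTG, which E proteins such as that of Tcf3 are known to bind.
Rag1 (chr2:101649483-101649782, minus strand): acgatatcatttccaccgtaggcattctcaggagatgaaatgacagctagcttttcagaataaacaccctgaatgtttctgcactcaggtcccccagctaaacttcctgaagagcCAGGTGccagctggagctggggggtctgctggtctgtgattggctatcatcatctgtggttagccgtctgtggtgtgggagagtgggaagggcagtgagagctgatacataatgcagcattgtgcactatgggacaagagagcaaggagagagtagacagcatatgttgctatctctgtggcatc
Rag2 (chr2:101624462-101624761, plus strand): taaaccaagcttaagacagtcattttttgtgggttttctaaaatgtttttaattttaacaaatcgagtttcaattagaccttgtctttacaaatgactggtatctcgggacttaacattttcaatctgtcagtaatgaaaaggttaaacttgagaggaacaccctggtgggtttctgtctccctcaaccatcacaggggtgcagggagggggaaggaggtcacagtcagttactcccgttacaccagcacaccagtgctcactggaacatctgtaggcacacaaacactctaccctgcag
Igll1 (chr16:16863936-16864235, minus strand): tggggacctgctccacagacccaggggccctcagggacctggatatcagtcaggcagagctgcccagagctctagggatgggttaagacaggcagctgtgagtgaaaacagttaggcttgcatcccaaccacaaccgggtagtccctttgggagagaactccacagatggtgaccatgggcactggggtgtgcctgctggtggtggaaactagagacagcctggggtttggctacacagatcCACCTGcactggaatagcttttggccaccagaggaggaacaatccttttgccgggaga
Vpreb1 (chr16:16869206-16869505, minus strand): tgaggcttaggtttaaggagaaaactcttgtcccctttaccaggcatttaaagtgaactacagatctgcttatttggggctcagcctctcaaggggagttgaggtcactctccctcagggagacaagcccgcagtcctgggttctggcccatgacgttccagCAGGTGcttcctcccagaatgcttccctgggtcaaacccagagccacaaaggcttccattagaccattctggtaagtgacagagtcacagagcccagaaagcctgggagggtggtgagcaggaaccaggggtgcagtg
The RefSeq promoter table matched 7 of the 8 genes. Like that of Vpreb1, the window of Vpreb3 (75948050 to 75948349) lies inside the GENCODE limits of its gene. The E-box stood in 4 of these 7 windows, those of Rag1, Vpreb1, Igll1 and Cd79a, and in 20.2% of all 32851 windows of 300 bases. The letters CCCNNGGG, the core bound by the B lineage factor Ebf1, stood in 1 of the 7, that of Igll1, against 13.7% of all windows. Both motifs were read on both strands and did not overlap in Igll1. A match describes the letters only.

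Cells were placed along the B lineage with markers that exclude the 8 genes. A B lineage cell needed at least 3 of 7 lineage markers such as Pax5, Ebf1, Blnk and Cd22, among them at least 2 of a core of 3 that includes Pax5 and Ebf1. The gate held 5542 cells, or 16.8% of all, after 525 cells with more than 2 markers of another class had been left out. Of the 5542 cells 923 were placed in no stage. Pro-B-like cells (628) carried at least 2 UMIs of Kit, Erg, Flt3 or Cd34. Cycling pre-B-like cells (542) carried at least 3 of 8 division genes such as Mki67 and Top2a, and resting pre-B-like cells (1495) at most 1. Immature B-like cells (1008) carried Ms4a1, and mature B-like cells (929) also at least 2 of 4 later markers such as Ighd and Fcer2a. At the limit of a gate stood 329 of the immature and 495 of the mature B-like cells. Their part in the step between these stages was not tested. Among genes that served in no gate, some followed the names and others did not. Il2ra, a marker of the small pre-B cell, stood at 289 CPM (UMIs of a gene per 1000000 UMIs of its group) in resting pre-B-like cells and at 24.4 to 49.1 CPM in the other 4 stages. The light chain gene Igkc stood at 428 CPM in pro-B-like cells and at 6863 CPM in immature B-like cells. The light chain gene Iglc1 fell at first, from 83.7 CPM in pro-B-like to 3.31 CPM in cycling pre-B-like cells. Inside the pro-B-like gate it stood at 171 CPM in resting and 4.62 CPM in cycling cells. Of clusters made without the 8 genes, the main one held 95.7% of resting pre-B-like, 76.3% of pro-B-like and 65.4% of mature B-like cells. CPM is a share of a group's UMIs, and cycling cells held more UMIs than resting ones. The median was 13048 UMIs in cycling and 4929 in resting pre-B-like cells. Inside the pro-B-like gate it was 17936 in cycling and 6276 in resting cells. A higher CPM in resting cells is therefore not always a higher count per cell. Another 17 cells with Jchain and other markers of antibody secretion were too few to describe.

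**Figure D1:**
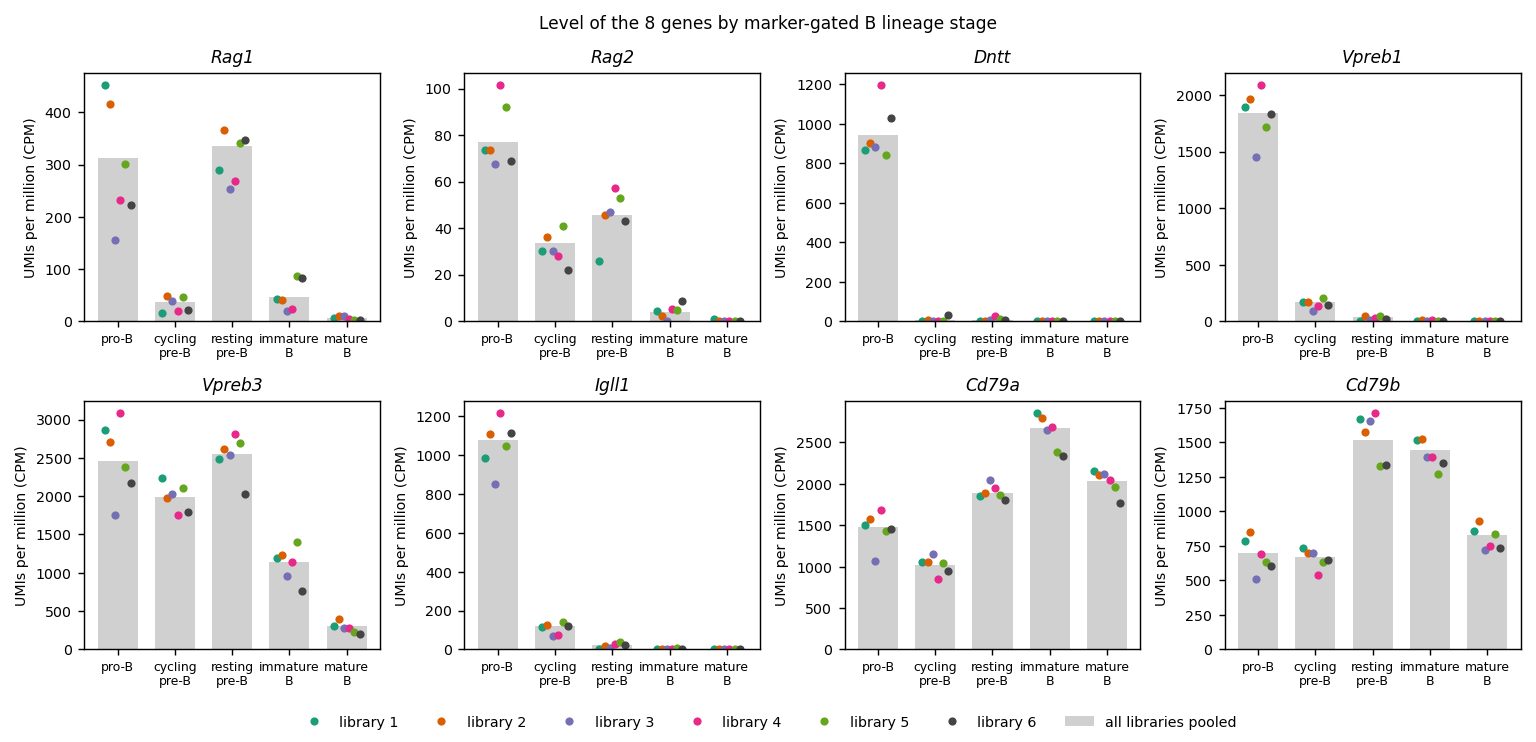
Level of each gene (CPM, linear axes from 0) in 5 B lineage stages. Bars pool all cells of a stage and points are the 6 libraries. Dntt, Vpreb1 and Igll1 are high in pro-B-like cells alone, Rag1 is high in pro-B-like and resting pre-B-like cells, and Cd79a and Cd79b are high in every stage.

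Rag1 was high, low and high again along the lineage. In pro-B-like cells the 6 libraries lay between 156 and 453 CPM with a median of 266, and all cells together gave 312 CPM (95% counting interval 299 to 326). In cycling pre-B-like cells they lay between 15.7 and 47.4 CPM with a median of 30.1. In resting pre-B-like cells the lowest was 254, the median 316 and the highest 366 CPM. No library of the cycling stage reached the lowest library of either neighbour. The pooled level was 8.99-fold higher in resting than in cycling pre-B-like cells (95% counting interval 7.98 to 10.2), and the 6 libraries gave 6.46-fold to 18.5-fold. As a mean count per cell the difference was smaller, with 305 UMIs in the 542 cycling and 2609 in the 1495 resting cells. The ranges of pro-B-like and resting pre-B-like cells overlapped, with resting pre-B-like cells higher in 4 libraries and lower in 2, so these stages were not ordered. Rag1 then fell to 46.9 CPM in immature and 6.19 CPM in mature B-like cells.

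The same split by division was seen inside the pro-B-like gate. Rag1 stood at 497 CPM in the 437 resting cells of that gate, with libraries from 326 to 613 CPM, and at 131 CPM in the 163 cycling ones, with libraries from 49.7 to 277 CPM. The ranges did not overlap. The ratio of the pooled levels was 3.78, and Rag1 was higher in the resting cells in all 6 libraries. As a mean count per cell the difference was smaller, with 398 UMIs in the 163 cycling and 1492 in the 437 resting cells.

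Like Rag1, Rag2 was low in immature and mature B-like cells, but its CPM moved less with division. Unlike Rag1, it was lower in resting pre-B-like than in pro-B-like cells in all 6 libraries, without overlap. Its libraries ranged from 67.7 to 102 CPM in pro-B-like cells, from 21.8 to 40.9 CPM in cycling and from 25.6 to 57.4 CPM in resting pre-B-like cells. The ranges of both pre-B-like stages overlapped, and the pooled ratio of resting to cycling cells was 1.35, with 5 libraries higher and 1 lower. Immature B-like cells were at 3.71 CPM (22 UMIs) and mature B-like cells held a single Rag2 UMI. As a result the number of Rag1 UMIs per Rag2 UMI differed between stages. It was 1.11 in cycling pre-B-like cells (95% counting interval 0.942 to 1.32), with libraries from 0.520 to 1.31. It was 7.39 in resting pre-B-like cells (6.61 to 8.28), with libraries from 4.69 to 11.3. Inside the pro-B-like gate it was 2.25 in cycling and 5.16 in resting cells. The ranges of the libraries overlapped there, from 0.636 to 3.31 in cycling and from 2.65 to 8.73 in resting cells, but within each of the 6 libraries the ratio was higher in the resting cells. The same held in all 6 libraries of the pre-B-like stages. The ratio counts captured 3′ ends of different transcripts and is read only for its change between stages.

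**Figure D2:**
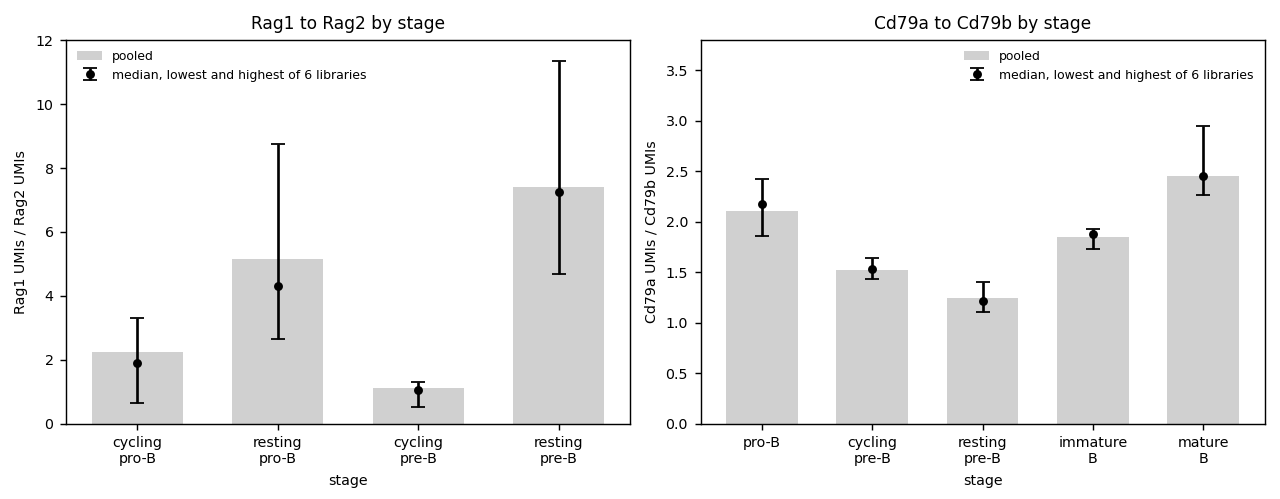
Left, Rag1 UMIs per Rag2 UMI in cycling and resting pro-B-like and pre-B-like cells. Right, Cd79a UMIs per Cd79b UMI in 5 stages. Bars pool all cells, and points with bars show the median, lowest and highest of the 6 libraries, on linear axes from 0. The Rag1 to Rag2 ratio is 1.11 in cycling and 7.39 in resting pre-B-like cells, and the Cd79a to Cd79b ratio is lowest, at 1.24, in resting pre-B-like cells.

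Detection of both recombinase genes in the same cell was uncommon, and it could not exceed the detection of Rag2. In resting pre-B-like cells Rag2 was detected in 287 cells, or 19.2%. At least 1 UMI of both was seen in 221 of 1495 resting pre-B-like cells, or 14.8% (exact 95% interval 13.02 to 16.68), with 10.1% to 17.8% in single libraries. With each cell thinned to 3000 UMIs the share was 7.65% of 1411 cells, the other 84 being shallower. The product of the single shares of Rag1 and Rag2 was 5.96%. Rag1 was detected in 67.5% of thinned cells with Rag2 and in 50.6% of those without it. In the thinned cells Rag2 was detected in 14.6% of cells with Rag1 and in 7.76% of cells without it, and it was more frequent beside Rag1 in all 6 libraries. In thinned pro-B-like cells the shares were 25.2% and 18.4%, and the libraries were mixed. There Rag2 was more frequent beside Rag1 in libraries 2, 5 and 6, equal in libraries 3 and 4 and less frequent in library 1. The thinned share of cells with Rag1 was 52.5% in resting pre-B-like cells. Neutrophil-like cells, which do not use the gene, gave 0.0198% at the same depth (median UMIs before thinning 4929 and 7479).

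Among the B lineage stages Dntt was high in pro-B-like cells alone. Its libraries ranged from 841 to 1198 CPM with a median of 892 in pro-B-like cells. Cycling pre-B-like cells ranged from 0 to 31.9 CPM, and resting pre-B-like cells from 1.22 to 23.7 CPM. No library of either pre-B-like stage came near the pro-B-like range. The pooled level was 152-fold higher in pro-B-like than in resting pre-B-like cells (95% counting interval 115 to 207), where it rested on 48 UMIs. The ratio rose to 252-fold when 1 more B lineage marker was asked for and to 320-fold when cells at exactly the minimum of a gate were left out. Unlike Rag1, Dntt as a share of UMIs differed little with division, at 1051 CPM in resting and 832 CPM in cycling pro-B-like cells. Their libraries overlapped, with resting cells higher in 5 and lower in 1. The 163 cycling cells held 2520 Dntt UMIs and the 437 resting cells 3155, so its mean count per cell was lower in resting cells.

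Both parts of the surrogate light chain were concentrated in pro-B-like cells. Igll1 ranged from 850 to 1217 CPM over the libraries there, from 69.4 to 141 CPM in cycling pre-B-like cells and from 0 to 35.8 CPM in resting pre-B-like cells. The 3 ranges did not overlap. The pooled level was 50.7-fold higher in pro-B-like than in resting pre-B-like cells (95% counting interval 43.4 to 59.5), and the lowest library gave 29.3-fold. Vpreb1 ranged from 1452 to 2091 CPM in pro-B-like cells, from 90.6 to 207 CPM in cycling and from 2.44 to 49.0 CPM in resting pre-B-like cells, again without overlap. In immature B-like cells both genes were down to 25 UMIs of Vpreb1 and 9 UMIs of Igll1.

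The value of Vpreb1 carries an uncertainty of assignment. Its transcript and that of Vpreb2 share 669 of 686 aligned bases, or 86.5% with gaps counted, so reads could be split between the genes or discarded. The alignment was not limited to the 3′ ends, which these libraries read, and how many reads were affected was not measured. Vpreb2 was at 145 CPM in pro-B-like cells, at 7.48 CPM in cycling and at 1.80 CPM in resting pre-B-like cells, the same order as Vpreb1. Rag1 overlaps the gene B230118H07Rik on its own strand. On the other strand Rag2 overlaps B230118H07Rik, Vpreb1 overlaps Top3b and Vpreb3 overlaps Gm16221.

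The surrogate light chain genes were found in the same cells. In thinned pro-B-like cells 92.5% of those with Vpreb1 also carried Igll1, against 13.3% of those without Vpreb1. Of the pro-B-like cells with Dntt 92.5% carried Igll1, against 46.9% of those without Dntt. Of all 628 pro-B-like cells 124 stood at exactly the minimum of a gate, and their part in these splits was not tested. The main cluster held 76.3% of the pro-B-like cells, and the part of the cells outside it was not tested either. Of the thinned resting pro-B-like cells without Vpreb1, 8.64% carried Igll1 and 92.6% carried Cd79b, so the gate can hold cells of different stages. Rag1 gave no such split, since Igll1 was in 77.4% of cells with Rag1 and in 78.3% of cells without it. In cycling pre-B-like cells the relation was the other way, with Igll1 in 1 of 65 cells with Rag1 (1.54%) and in 16.1% of cells without it.

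The cells of the cycling pre-B-like gate also differed by their light chain. Among thinned cells, Vpreb1 was detected in 51.2% of the 84 cells without an Igkc UMI and in 11.9% of the 454 cells with one. Igll1 was detected in 40.5% and 9.47%. Rag1 went the other way, at 1.19% of cells without and 14.1% of cells with an Igkc UMI. In 1 or more libraries the cells without Igkc gave 0% for Vpreb1 and Igll1, so the split was not seen in every library. In the resting pre-B-like gate Rag1 was detected in 65.1% of the 152 cells without and 51.0% of the 1259 cells with Igkc, and the ranges over libraries overlapped (44.4% to 73.3% and 44.0% to 55.2%). A cell without an Igkc UMI at this depth may still carry the transcript.

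Vpreb3 outlasted the surrogate light chain genes. Its libraries ranged from 1755 to 3083 CPM in pro-B-like, from 1755 to 2231 CPM in cycling pre-B-like and from 2024 to 2811 CPM in resting pre-B-like cells, and these ranges overlapped. Within libraries the level was higher in resting than in cycling pre-B-like cells in all 6, with a pooled ratio of 1.28, while the pro-B-like level was above the resting pre-B-like level in 4 and below it in 2. The ranges fell to 758 to 1397 CPM in immature and 200 to 400 CPM in mature B-like cells. Those last ranges lay below all others and did not overlap each other. The thinned share of cells with Vpreb3 was 97.2% in resting pre-B-like, 80.4% in immature and 39.4% in mature B-like cells.

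The signalling chains were present at every stage. Cd79a was lowest in cycling pre-B-like cells, from 847 to 1147 CPM, a range that overlapped that of pro-B-like cells (1072 to 1678 CPM), and highest in immature B-like cells, from 2335 to 2853 CPM, above all other stages. Resting pre-B-like cells (1800 to 2049 CPM) and mature B-like cells (1763 to 2154 CPM) overlapped. Cd79b was highest in resting pre-B-like cells, from 1326 to 1713 CPM, a range that overlapped that of immature B-like cells (1268 to 1525 CPM), which were lower in 5 libraries and higher in 1. The ranges of pro-B-like cells (510 to 848 CPM) and cycling pre-B-like cells (541 to 737 CPM) overlapped as well. The level in mature B-like cells was 1.18-fold that in pro-B-like cells and higher in all 6 libraries, but the direction turned to 0.975 with clusters in place of gates and to 0.947 in thinned cells, so no direction is read from it. Cd79a UMIs per Cd79b UMI fell from 2.10 in pro-B-like to 1.24 in resting pre-B-like cells and stood at 2.46 in mature B-like cells. The libraries of resting pre-B-like cells (1.11 to 1.40) lay below those of every other stage.

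The steps between neighbouring stages were also set against all genes. A gene was called when its pooled level differed at least 2-fold and in the same direction in all 6 libraries, among genes with at least 5 CPM in either stage, the gate markers left out. From pro-B-like to cycling pre-B-like cells 5 of the 8 genes were lower (Rag1, Rag2, Dntt, Vpreb1 and Igll1), against 10.0% of 10085 genes, and none was higher, against 4.01%. Most pro-B-like cells were resting (437, beside 163 cycling), so this step also differs in division. From cycling pro-B-like cells alone Rag2 fell from 58.4 to 33.6 CPM, less than 2-fold. Rag1, Dntt, Vpreb1 and Igll1 stood at 131, 832, 1219 and 757 CPM there, against 37.4, 7.11, 169 and 121 CPM. From cycling to resting pre-B-like cells Rag1 and Cd79b were higher, against 10.6% of 9734 genes, and Vpreb1 and Igll1 were lower, against 13.1%. These are shares of UMIs. Cd79b had 5463 UMIs in the 542 cycling and 11773 in the 1495 resting cells, so its mean count per cell was lower in resting cells. The same held for Rag2 (274 and 353 UMIs), Vpreb3 (16217 and 19763 UMIs) and Cd79a (8332 and 14608 UMIs), but not for Rag1 (305 and 2609 UMIs). From resting pre-B-like to immature B-like cells 5 were lower (Rag1, Rag2, Dntt, Vpreb1 and Vpreb3), against 3.99% of 9600 genes, and none was higher, against 5.69%. Igll1 missed this call although its pooled level fell from 21.3 to 1.52 CPM, because library 1 held no Igll1 UMI in resting pre-B-like cells and 1.08 CPM in immature B-like cells. From immature to mature B-like cells Rag1 and Vpreb3 were lower, of the 4 genes with enough counts, against 3.38% of 9528 genes, and none was higher, against 2.21%. From cycling to resting pro-B-like cells Rag1, Vpreb1 and Vpreb3 were higher, against 7.62% of 10259 genes, and none was lower, against 8.80%. In the 163 cycling and 437 resting cells Vpreb1 had 3694 and 7476 UMIs and Vpreb3 5021 and 10000. Their mean counts per cell were thus lower in resting cells, while that of Rag1 was higher (398 and 1492 UMIs). The median log2 ratio of the 8 genes was −2.13 in the first of these steps and −2.95 from resting pre-B-like to immature B-like cells, where the medians over all genes were −0.09 and 0.02.

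Other genes of the pathway moved at different steps. Their levels, here and in the lists below, are again shares of UMIs. Resting pre-B-like cells held fewer UMIs (median 4929, against 13048 in cycling ones), so a higher share there can be a lower count per cell. Of the 13 genes of pre-B receptor signalling, 3 were called higher in resting than in cycling pre-B-like cells, against 10.6% of all genes, the kinases Syk (709 to 1544 CPM, 2.18-fold, the smallest of the 3) and Lyn and the adaptor Bank1 (10.7 to 154 CPM, 14.4-fold, the largest), and none lower, against 13.1%. Bank1 and Ptpn6 were called higher in immature B-like than in resting pre-B-like cells, against 5.69% of all genes. Bank1, Pik3cd and Inpp5d were lower in cycling pre-B-like than in pro-B-like cells, against 10.0%. From cycling pro-B-like cells alone these falls were less than 2-fold. Bank1 went from 19.8 to 10.7 CPM, Pik3cd from 191 to 129 CPM and Inpp5d from 852 to 524 CPM. None of the 13 was called between immature and mature B-like cells, where 2.21% of all genes were higher and 3.38% lower. The medians of the list were 0.55 on the log2 scale for the step from cycling to resting pre-B-like cells and 0.08 for all genes.

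Of 14 genes of end joining and recombination partners, 13 were in the table. Polm, a polymerase that fills the joins (55.1 to 169 CPM), Dclre1c, which encodes the Artemis nuclease that opens hairpin ends (67.5 to 149 CPM), and Xrcc6, which encodes the Ku70 end binder (323 to 673 CPM), were called higher in resting than in cycling pre-B-like cells. Hmgb2 (6501 to 437 CPM) and Hmgb1 were lower. These were 3 higher and 2 lower of the 12 genes with enough counts, against 10.6% and 13.1% of all genes, and the median log2 ratio of the 12 was 0.05, beside 0.08 for all genes. Of 12 genes, Xrcc6 and Lig4 were lower in immature B-like than in resting pre-B-like cells, against 3.99% of all genes, and Xrcc6, Lig4 and Polm were lower in mature than in immature B-like cells, against 3.38%.

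Among 13 regulators, 4 were called higher and none lower in resting than in cycling pre-B-like cells, against 10.6% and 13.1% of all genes. Of the 4, Foxo1 had the largest ratio (294 to 911 CPM, 3.10-fold) and Bach2 the smallest (2.05-fold). Foxo1 encodes a factor known to activate Rag genes. From resting pre-B-like to immature B-like cells 6 of the 13 were lower, against 3.99% of all genes, and none higher, against 5.69%, with the largest fall in Il7r, the interleukin 7 receptor (612 to 92.8 CPM), and the smallest in Tcf3 (410 to 192 CPM). Lef1 (2265 to 415 CPM) and Bcl6, 2 of the 13, were lower in cycling pre-B-like than in pro-B-like cells, against 10.0%. In cycling pro-B-like cells alone Lef1 stood at 1287 CPM. Bcl6 stood at 68.3 CPM there, less than 2-fold above its 38.5 CPM in cycling pre-B-like cells. Myb, Sox4 and Il7r were lower in mature than in immature B-like cells, against 3.38%. Of the 6 receptor chains 4 were called higher between cycling and resting pre-B-like cells, against 10.6%. Igkc rose from 1101 to 3533 CPM and Iglc1 from 3.31 to 720 CPM, together with Iglc2 and Iglc3, while Ighm stood at 2352 and 4350 CPM, under the 2-fold limit. From cycling to resting pro-B-like cells 3 of the 13 signalling genes, 2 of the 13 end joining genes, 4 of the 13 regulators and 5 of the 6 receptor chains were called higher, against 7.62% of all genes. Hmgb1 and Hmgb2, both among the 13 end joining genes, were the only called genes of these lists that were lower, against 8.80%.

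Most UMIs of the 8 genes lay in the B lineage gate, with Dntt as the exception. The gate, with the mixed cells, held 94.9% to 99.5% of the UMIs of the other 7 genes and 59.3% of those of Dntt. Cells placed in a stage, with the antibody-secreting ones, held 73.2% to 84.5% and 52.4%. Plasmacytoid dendritic cell-like cells (580), named from Siglech, Ccr9 and related genes, held 16.9% of the Dntt UMIs. An unnamed cluster of 564 cells led by Hbb-bs, Hba-a1 and Hbb-bt, which also held markers of stem and progenitor cells, held 21.0%.

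**Figure D3:**
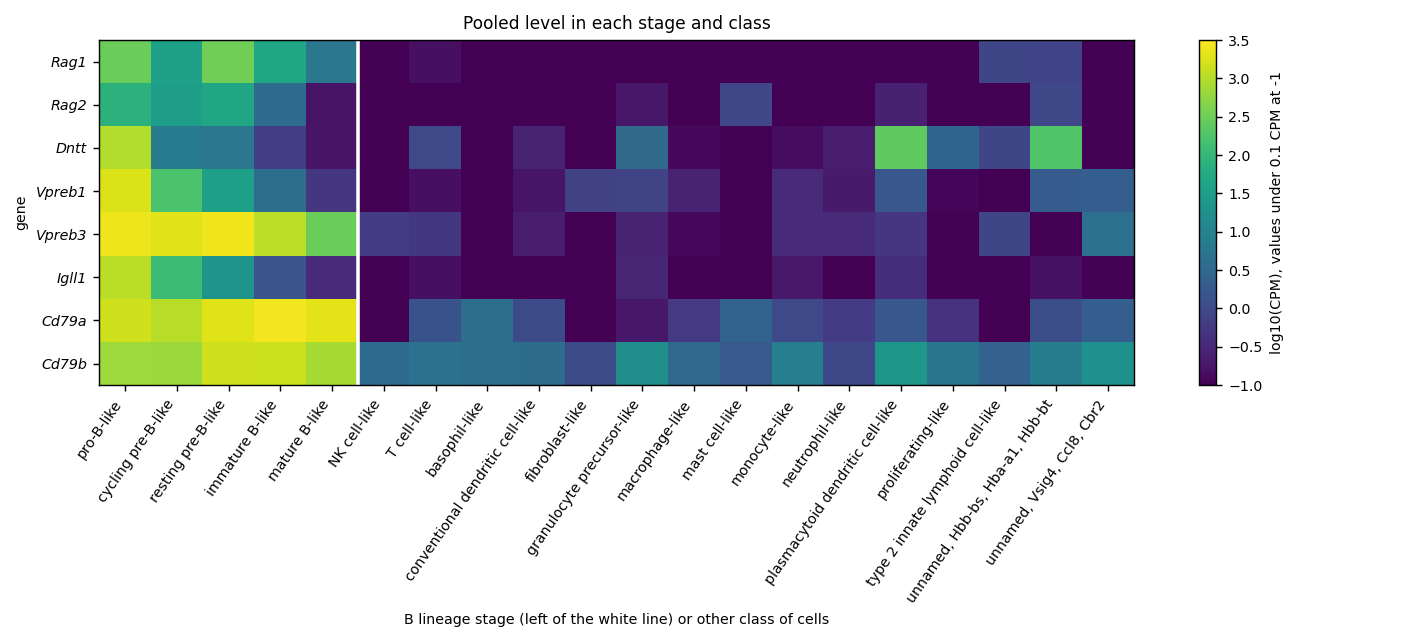
Pooled level (log10 CPM, values under 0.1 CPM drawn at −1) of the 8 genes in 5 B lineage stages, left of the white line, and 15 other classes of cells. Outside the B lineage Dntt stands at 254 CPM in plasmacytoid dendritic cell-like cells and at 193 CPM in the unnamed cluster led by Hbb-bs, and Cd79b at up to 24.3 CPM in the named classes.

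In plasmacytoid dendritic cell-like cells Dntt was at 254 CPM, with libraries from 136 to 323 CPM, below the lowest pro-B-like library. It was detected in 39.6% of thinned cells there, against 0.0593% of neutrophil-like cells (median UMIs before thinning 11679 and 7479). Few UMIs of Rag1, Vpreb1 and Igll1 were found beside it. Rag1 had 0 UMIs in these 580 cells, which allows a level of up to 0.390 CPM, Vpreb1 had 13 and Igll1 had 3. There were 150 Dntt UMIs per Vpreb1 UMI in these cells and 0.510 in pro-B-like cells.

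In the unnamed cluster led by Hbb-bs Dntt was at 193 CPM, with libraries from 71.2 to 247 CPM, and was detected in 15.2% of thinned cells. There it lay mainly in cells with Flt3, a receptor of early progenitors, at 41.0% of 144 cells with a Flt3 UMI and 6.10% of 410 cells without. With the interleukin 7 receptor gene the shares were 17 of 21 cells with Il7r (81.0%) and 12.6% of 533 cells without it. A Rag1 UMI was detected in 2 of its 84 thinned cells with Dntt.

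All 8 genes had some UMIs outside the gate, and after Dntt the share in the gate was lowest for Cd79b, at 94.9%. Granulocyte precursor-like cells stood at 17.2 CPM, with libraries from 13.7 to 18.6 CPM, and plasmacytoid dendritic cell-like cells at 24.3 CPM, against 0.935 CPM in neutrophil-like cells. Cd79a was rarer, with 7 UMIs beside 627 of Cd79b in granulocyte precursor-like cells, a ratio of 0.0112 against 1.24 to 2.46 along the B lineage. In neutrophil-like cells the counts were closer, 75 UMIs of Cd79a and 117 of Cd79b.

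Genes outside the 8 and the gate markers were ranked by how closely their levels followed each of the 8 over the 21 stages and classes. The 3 closest of 13851 genes were taken by Pearson's r of log2(CPM + 1), as a description. They were Gpam (r = 0.97), Smtnl2 and Gm15409 for Rag1, and Gm15409 (0.98), Smtnl2 and Uchl1os for Rag2. For Dntt they were Robo3 (0.90), Kif17 and Kcng1. For Vpreb1 they were Gm5103 (0.97), Col26a1 and Gm15406, and for Igll1 Gm5103 (0.96), Vpreb2 and Uchl1os. Vpreb3 and Cd79a shared 2010007H06Rik (0.98 for both) and Gm12158, with Ltk and Pou2af1 as their other genes. For Cd79b they were Fam129c (0.97), Gm16316 and Cecr2. Some of the 8 followed each other more closely than these genes did, among them Vpreb1 and Igll1 (r = 0.98). The stages and classes share libraries and differ in depth. They include the 17 antibody-secreting-like cells, where 1 cell held all 39 Vpreb1, 16 Dntt and 8 Igll1 UMIs.

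The spread between libraries was smaller within a stage than over whole libraries for some genes and stages and larger for others. Over all cells Rag1 ranged from 5.06 to 33.4 CPM over the 6 libraries and Cd79b from 59.5 to 223 CPM, and all 8 genes were highest in library 2. That library had the highest share of cells in the B lineage gate, 33.6%, where the others had 10.4% to 17.9%. In whole libraries more cells of a type and more RNA per cell cannot be told apart. Inside resting pre-B-like cells the highest library was 1.44-fold the lowest for Rag1, where whole libraries gave 6.61-fold, and 1.29-fold for Cd79b, where they gave 3.75-fold. Rag1 came closer to its whole-library spread in immature (4.63-fold) and mature B-like cells (4.97-fold). For Dntt and Vpreb1 the order was the opposite in resting pre-B-like cells, at 19.4-fold and 20.1-fold where whole libraries gave 3.12-fold and 3.73-fold, on 48 and 273 UMIs. The share of granulocyte precursor-like cells ranged from 0.822% to 5.44% and that of the unnamed cluster led by Hbb-bs from 0.651% to 2.87%. Their part in the levels was not tested.

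**Figure D4:**
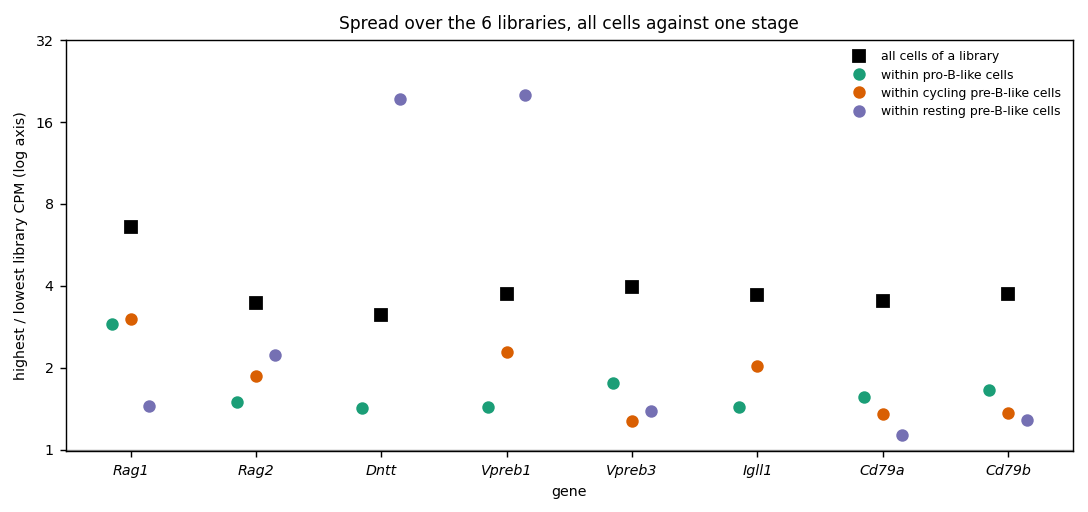
Highest over lowest library level of each gene (log axis) over all cells of a library, black squares, and within 3 stages, coloured points. Ratios with a library at 0 are not drawn. For Rag1 the ratio is 6.61 over all cells and 1.44 within resting pre-B-like cells, while for Dntt and Vpreb1 the points of resting pre-B-like cells, at 19.4 and 20.1, lie above the squares.

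The libraries held 2919 to 9345 cells and 47273569 to 123367661 UMIs, with a median of 9923 to 14001 UMIs per cell. Ptprc, the gene of CD45 used in the sort, was detected in 95.8% of cells. A barcode sequence was shared by libraries in 138 cases, which concern 276 cells.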

How the data were processed

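Single-cell RNA sequencing libraries of 6 samples were analysed. The authors made 10x Chromium 3′ libraries (kit version 3.1), aligned them to mm10 with Cell Ranger 7, removed ambient RNA and doublets, and deposited whole UMI counts, not scaled for depth, for 20394 genes and 32953 cells in 1 table. The annotation release is not given in the sources used here. Ambient removal can take true low counts to 0, and no doublet caller was run again.

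Counts were summed per group and given as CPM. Intervals and floors cover counting error only: exact Poisson for levels, exact binomial for shares, 3 counts where none was seen. Detection shares were compared after thinning each cell to 3000 UMIs. Other classes came from 34 Leiden clusters made without the 8 genes (scanpy 1.11.5, numpy 2.4.6, scipy 1.17.1) and were named from fixed markers. No test between treatments was made, since no source used here links library numbers to samples. The genes, the gene lists and the gates were chosen with earlier results of these data known, and gate limits were set after seeing the data. Named genes were the 8 in each stage and class, the 3 most like each outside the 8 and the gate markers, and list members called, with the largest and smallest ratio. Calls between stages (a fold limit and 1 direction in all libraries) are a rule without a p-value, and the code that makes them was checked on simulated counts. Alternatives were other gates, clusters, thinned cells, a median over libraries, and leaving out each library. The value of 1 listed gene and the names of some gate markers are not reported here.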

Additional observations from a re-analysis of the deposited data

How the results depend on the processing

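The 5 main values were computed under 60 alternatives, of which 43 stayed within the counting interval of the value, 15 left it and 2 turned the direction. The turned values were both the ratio of Cd79b in mature B-like to pro-B-like cells, 0.975 with clusters and 0.947 in thinned cells. That ratio was 1.02 without cells at exactly the minimum of a gate and 1.25 with cells kept that carried markers of another class. The Igll1 ratio of pro-B-like to resting pre-B-like cells was 70.2 with clusters, 62.1 without cells at the minimum and 63.7 in thinned cells. The Dntt ratio was 252 with 1 more B lineage marker and 320 without cells at the minimum. The Rag1 ratio of resting to cycling pre-B-like cells was 6.64 in thinned cells and 10.8 as a median over libraries. The share of resting pre-B-like cells with Rag1 and Rag2 was 7.65% in thinned cells, which hold fewer UMIs by construction. The cause of the other shifts was not tested. Leaving out each library in turn gave 45.6 to 61.9 for Igll1, 111 to 186 for Dntt, 8.27 to 10.3 for Rag1, 1.15 to 1.25 for Cd79b and 12.98% to 15.66% for the share. After the pre-B-like stages single libraries held few or no UMIs of Rag2, Igll1 and Dntt, which limits how well these levels are known. Median UMIs per cell were 5598 in immature and 5807 in mature B-like cells, beside 4929 in resting pre-B-like cells. The thinned share of cells with Rag2 was 11.3% in resting pre-B-like, 1.52% in immature and 0% in mature B-like cells. The treatments could be neither compared nor paired because the replicate numbers of the labels could not be tied to the libraries. These values come from no test. Stages were instead compared within each of the 6 libraries, without a p-value.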
